A study of Mus musculus with 18 samples.

Results

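The regions described here are places between genes where the ATF4 immunoprecipitations from 2-deoxyglucose (2-DG) treated neurons carried a peak and those from untreated neurons did not. They were chosen by the peak calls themselves. Peaks of 4 control and 4 2-DG lists on chromosomes 1 to 19 and X were merged where they shared 1 bp. A region was kept when 3 or 4 of the 2-DG lists and 0 of the control lists touched it, when it overlapped no protein-coding gene, and when it lay more than 2000 bp from either end of one. Of 35717 merged regions, 626 met this rule. They were 3.17% of the 19728 merged regions between genes, while 3.99% of regions of any place were called in this way. The reverse rule, 3 or 4 control lists and 0 2-DG lists, was met by 25 regions between genes (0.127%). These percentages follow from the choice of the regions and were not tested. Absence from the control lists means only that no peak was called there.

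The samples were primary immature neurons cultured from mouse embryos of day 14 and used after 2 days in vitro in a medium with serum. Control neurons were untreated, and treated neurons were given 10 mM 2-DG for 6 h. The strain was not stated. Of 18 samples, 10 had a peak list, and in 8 of these the title, the description and the treatment label named 1 treatment (4 control, 4 2-DG). The design text states 3 independent replicates and nothing ties a list to a culture, so the p-values cover only the list-to-list spread, which may be technical. Per the antibody label, 2-DG samples had the ATF4 antibody and control samples had none, whereas the design text names it for both. A difference in antibody therefore cannot be told apart from a difference in treatment. Peak lists give no expression, so the neuronal label could not be checked against markers, and they give no read counts, so depth is unknown.

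ATF4 is a basic leucine zipper transcription factor whose messenger RNA is translated preferentially when the initiation factor eIF2 is phosphorylated. With C/EBP family partners it binds a composite site, the C/EBP-ATF response element, in genes of amino acid supply, redox balance and the unfolded protein response. 2-DG is a glucose analogue that inhibits glycolysis and interferes with N-linked glycosylation, which stresses the endoplasmic reticulum. Sites of transcription factors that lie between genes can be distal enhancers or starts of non-coding transcripts. The peak lists do not tell these apart, and naming the nearest gene of a region does not make that gene its target.

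The 8 lists differed in length, from 3461 to 8202 peaks in control and from 5856 to 15240 in 2-DG, with the longest list being 2-DG replicate 1. Of the 626 regions, 621 were called in 2-DG replicate 1, 613 in replicate 2, 327 in replicate 3 and 549 in replicate 4. All 4 lists held 232 regions (37.1%), and 394 were held by 3. Of those 394, 299 lacked a call in 2-DG replicate 3, 77 in replicate 4, 13 in replicate 2 and 5 in replicate 1. Membership was thus limited mostly by 1 list. Requiring all of the remaining 3 lists gave 237 regions without replicate 1, 245 without replicate 2, 531 without replicate 3 and 308 without replicate 4.

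Of the 626 regions, 7 overlapped a start window of a gene, the 250 bases before to 50 bases after an annotated start (RefSeq, GRCm38.p6, the assembly mm10 names). The rule shuts out starts of protein-coding genes, which lie in the 2000 bp windows it avoids. All 7 starts belonged to long non-coding RNA genes, and no other set of regions was counted for comparison. In 3 of the 7 the median summit of the 2-DG lists fell inside the window. These 3 windows are shown because they are the stretches of sequence at hand that lie under a summit of these regions. They are written 5′ to 3′ on the strand of the RNA, with the start of the gene at base 251. Capitals mark matches to motifs searched on both strands: TGATGNAAT and its shorter form TGATGNAA (core letters of the C/EBP-ATF element), TGACGTCA (the cyclic AMP response element) and TGANTCA (the AP-1 site). The shorter form holds every match to the longer one and was added after the windows had been seen. The first window is that of Gm33760, chr4:128877389-128877688 on the plus strand, in the region chr4:128877482-128877931 nearest to the protein-coding gene Trim62. The second is 5430403N17Rik, chr8:35882908-35883207 on the minus strand, in the region chr8:35882574-35883176 nearest to Cldn23. The last is Gm40376, chr12:32724478-32724777 on the plus strand, in the region chr12:32724484-32724732 nearest to Nampt, which encodes an enzyme of NAD salvage.
Gm33760: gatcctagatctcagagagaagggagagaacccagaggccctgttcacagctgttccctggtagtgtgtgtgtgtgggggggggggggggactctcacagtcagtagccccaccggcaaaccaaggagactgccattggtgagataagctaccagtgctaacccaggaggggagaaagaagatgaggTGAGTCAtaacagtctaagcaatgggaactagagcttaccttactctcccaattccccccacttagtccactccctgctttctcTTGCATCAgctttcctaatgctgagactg
5430403N17Rik: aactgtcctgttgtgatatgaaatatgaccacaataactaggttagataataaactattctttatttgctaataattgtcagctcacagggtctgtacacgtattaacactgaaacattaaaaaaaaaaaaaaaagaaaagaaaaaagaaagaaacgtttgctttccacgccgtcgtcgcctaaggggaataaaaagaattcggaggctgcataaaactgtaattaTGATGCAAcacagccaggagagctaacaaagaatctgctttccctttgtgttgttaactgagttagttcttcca
Gm40376: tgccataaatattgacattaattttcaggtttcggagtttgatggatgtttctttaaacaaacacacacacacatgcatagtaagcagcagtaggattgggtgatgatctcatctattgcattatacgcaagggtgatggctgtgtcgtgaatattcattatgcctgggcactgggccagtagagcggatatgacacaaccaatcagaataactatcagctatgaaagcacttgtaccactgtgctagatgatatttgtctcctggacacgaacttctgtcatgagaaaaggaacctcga

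In the Gm33760 window, TTGCATCA (TGATGNAA read from the other strand; chr4:128877660-128877667) began at base 272, and the median summit, at position 128877661, fell within it. TGAGTCA began at base 188 of the same window, with its middle 82 bases from the summit. In the 5430403N17Rik window, TGATGCAA (chr8:35882974-35882981) began at base 227, with its middle 24 bases from the median summit. That summit was 3 bases from the annotated start of the gene, and the summit of the Gm33760 region was 22 bases from its start. The Gm40376 window held none of the 4 motifs, and its summit lay 122 bases from the start. The Gm40376 region was called in all 4 2-DG lists, and the others lacked a call in replicate 3. The authors' fold over local background was 8.66, 6.76 and 5.64 at Gm33760 and 9.59, 10.7 and 5.97 at 5430403N17Rik in replicates 1, 2 and 4. Of all 32851 start windows in the table, 3.97% held TGATGNAA, 0.965% held TGATGNAAT, 1.79% held TGACGTCA and 7.81% held TGANTCA. With so few windows these matches are a description, and the letters of all remaining regions were not used here.

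The regions were narrow, with a median width of 366 bp and a range of 123 to 1339 bp. The median width was 395 bp for 2-DG-specific regions at gene ends and 380 bp for those inside genes. Those between genes in all 4 2-DG lists had a median width of 486 bp, and those in 3 lists 323 bp. A region spans the merged peaks of its lists, so its width can grow with their number. The median distance between the outermost of a region's highest summits in the lists was 46 bp, and in the regions called in all 4 lists it ran from 3 to 548 bp. The corresponding medians were 49 bp for 2-DG-specific regions at gene ends and 47 bp for those inside genes. Within 50 bp fell the summits of 333 regions (53.2%).

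The authors' fold over local background is the height of a peak in its own list, and values are compared only within a list. The median fold at these regions was 10.2 in 2-DG replicate 1, 7.83 in replicate 2, 5.38 in replicate 3 and 5.31 in replicate 4. Over all peaks of those lists it was 4.33, 4.62, 4.89 and 4.65. The range was 3.40 to 86.6 in replicate 1, 3.56 to 66.2 in replicate 2, 3.91 to 21.5 in replicate 3 and 3.65 to 38.8 in replicate 4. The median of the regions lay above the median of all peaks in each list. Regions called in all 4 lists were higher in each list than those called in 3, with median folds of 17.2 against 8.04, 13.0 against 6.4, 5.87 against 4.89 and 7.47 against 4.98 in replicates 1 to 4. The regions were chosen for calls in several lists, which tall peaks meet more easily. Both orderings therefore follow at least in part from the choice and were not tested. For ranking, the percentile of a region's fold within each list was averaged over the lists that held it. The median of this mean percentile was 73.6 for the 626 regions, 78.1 for 2-DG-specific regions at gene ends and 77.0 for those inside genes. On the other side of the limit on lists, 1225 regions between genes were held by exactly 2 2-DG lists and no control list, with a median mean percentile of 51.4. A further 135 were held by 3 or 4 2-DG lists and 1 control list, with a median of 49.3.

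Of the 10 highest regions, 6 lay more than 40 kb from any protein-coding gene. The median gap over all 626 regions was 78546 bp, so such distances were not particular to the highest. The highest of all lay at chr2:71742261-71743146, 43740 bp from Itga6, which encodes a laminin receptor subunit, and inside the long non-coding RNA gene Gm17250. Its fold was 86.6, 66.2, 21.5 and 38.8 in 2-DG replicates 1 to 4. It was the highest of the 626 regions in each of the 4 lists. The next lay at chr3:80141605-80142208, 195327 bp past Gask1b, with folds of 50.4, 54.1, 21.0 and 26.2. A region at chr18:41315180-41316273, 559423 bp from Prelid2, had folds of 52.6, 35.2, 17.6 and 23.6. A region at chr4:66821547-66822392 was 5159 bp from Tlr4, the lipopolysaccharide receptor gene, with folds of 61.9, 42.7, 16.6 and 18.6. At chr15:19316104-19316908, 299898 bp past the cadherin gene Cdh10, the folds were 48.9, 34.1, 12.2 and 24.6. At chr14:58772029-58772592, 360443 bp past 1700129C05Rik, they were 38.4, 37.7, 12.7 and 22.9. The other 4 were nearest to Sh2d6 (4537 bp), Nbea (21788 bp), a gene of membrane traffic in neurons, Atxn7l3b (25275 bp) and 1600014C23Rik (117436 bp). Their folds lay between 41.1 and 52.9 in replicate 1 and between 11.7 and 16.6 in replicate 3. The summits of the 4 lists lay within 8 to 34 bp of each other in the 10 highest regions.

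The 5 lowest of the regions called in all 4 lists were nearest to Hsf2, Akr1b3, Hspa4, Mbip and Gm51483, the first and the third of which encode a heat shock factor and a heat shock protein of the Hsp70 family. Their folds lay between 3.40 and 6.36 in all lists. The region near Gm51483, at chr7:61030003-61030134, had folds of 3.40, 3.56, 3.91 and 4.31. Their summits lay 85 to 242 bp apart, wider than in the 10 highest. A recurrent call between genes thus covered both tall peaks with a shared summit and low peaks with scattered summits.

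**Figure D1:**
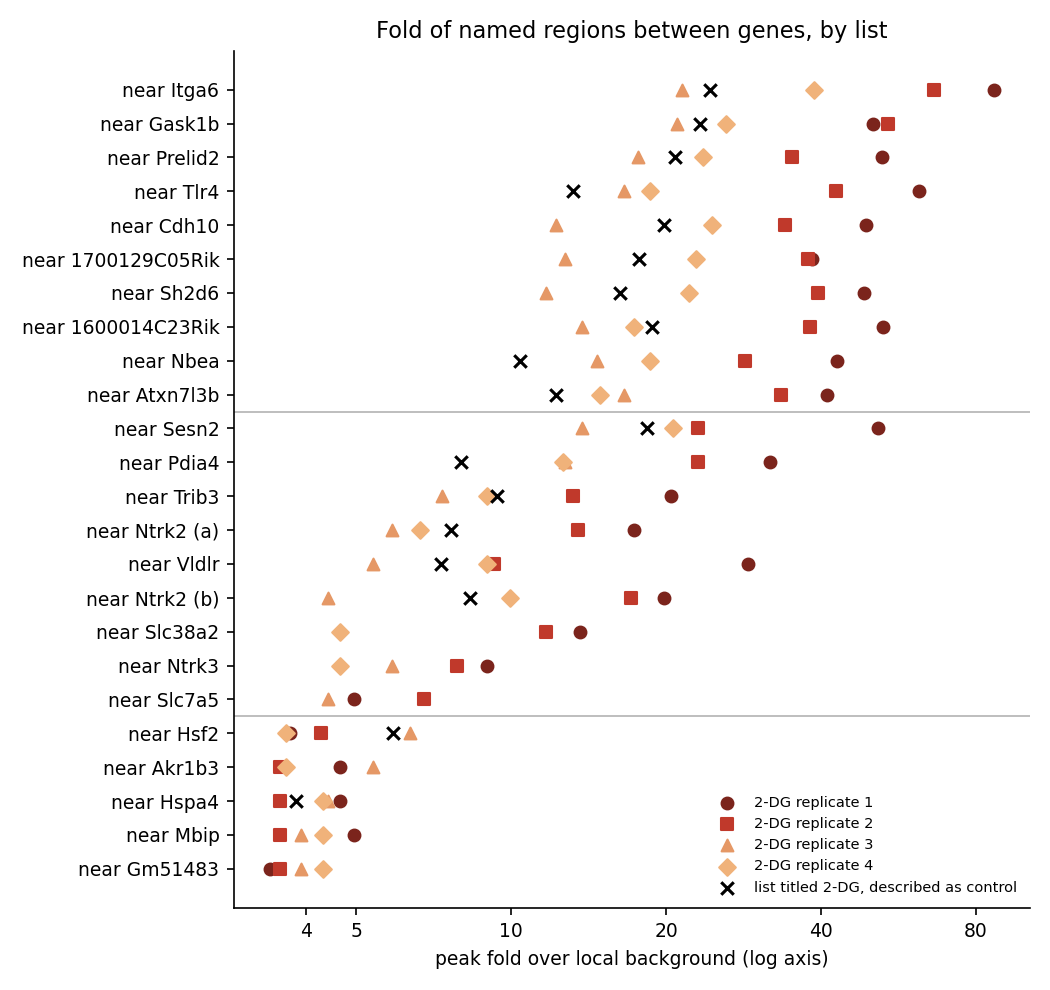
Each row is a region between genes, named by its nearest protein-coding gene, and each mark is the authors' fold over local background (log axis) in 1 list. The 10 highest regions are above the upper line, those nearest to genes of the ATF4 target, endoplasmic reticulum and neurotrophin lists are between the lines, and the 5 lowest of those in all 4 lists are below. Folds at the Itga6 region run from 21.5 to 86.6 over the 2-DG lists and at the Gm51483 region from 3.40 to 4.31. A cross is a list that is titled 2-DG but described as control, and a missing mark means no call.

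Few of the regions were nearest to ATF4 target genes. Their share rests on 5 regions, so no difference from the other sets between genes can be read, and none was tested. Of the 626, 5 were nearest to 1 of 34 ATF4 target genes, which is 0.799%. The share was 0.332% (27 of 8127) for regions between genes in 1 2-DG list and no control list, and 0.185% (12 of 6490) for those in 1 control list and no 2-DG list. For the 1225 regions in exactly 2 2-DG lists it was 0.653% (8 regions). The 5 were Sesn2, Trib3, Vldlr, Slc38a2 and Slc7a5. Sesn2 encodes sestrin 2, a stress-induced inhibitor of mTORC1. The region 3338 bp upstream of it, chr4:132513794-132514351, had folds of 51.7, 23.1, 13.7 and 20.6 in 2-DG replicates 1 to 4. It ranked near the 10 highest, with a mean percentile of 97.81. The region 5692 bp upstream of Trib3, a pseudokinase gene, lay at chr2:152349752-152350278 inside the non-coding gene Gm14164, with folds of 20.4, 13.2, 7.34 and 8.96. The region 6318 bp past the finish of Vldlr, a receptor for reelin and lipoproteins, lay at chr19:27260549-27260999 inside Gm35438, with folds of 28.8, 9.25, 5.38 and 8.96. Within the lists, the Vldlr region stood at percentiles of 98.59, 87.46, 64.84 and 89.22. The regions of 2 amino acid transporter genes were called in 3 lists each. At Slc38a2, chr15:96743149-96743654 and 43421 bp upstream, the folds were 13.6, 11.7 and 4.64 with no call in replicate 3. At Slc7a5, chr8:121878784-121879008 and 2138 bp away, they were 4.95, 6.76 and 4.40 with no call in replicate 4.

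Of these 5 genes, Sesn2, Trib3, Vldlr and Slc38a2 also had a 2-DG-specific region within 2000 bp of a gene end, and Slc7a5 did not. In all, 14 of the 626 regions (2.24%, exact binomial 95% interval 1.23 to 3.72) were nearest to a gene with such an end region. The share was 1.49% (interval 1.24 to 1.78) among regions between genes in 1 2-DG list, 1.14% (0.626 to 1.91) among those in 2 2-DG lists and 1.09% (0.855 to 1.38) among those in 1 control list. All 3 of these intervals overlap that of the 626. These intervals, and all others on shares of regions, cover counting error only. Beyond the ATF4 targets the 14 included regions 4702 bp from Gadd45a, a growth arrest and DNA damage gene, and 14354 bp from Hspa9, the mitochondrial Hsp70 chaperone. Their folds were 18.9, 8.89 and 5.97 with no call in replicate 3 at Gadd45a, and 17.0, 13.2, 6.36 and 4.64 at Hspa9. These 2 are named after their values were seen. The median distance from the 626 regions to the closest 2-DG-specific region at a gene end was 5813830 bp, so most had none in their neighbourhood. This was not particular to them. The median was 5671024 bp for regions between genes in 2 2-DG lists, 5078710 bp in 1 2-DG list and 5159887 bp in 1 control list.

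Aminoacyl-tRNA synthetases, serine and one-carbon enzymes, autophagy, glycolysis, microglial and oligodendrocyte genes were nearest to 0 of the 626 regions. Their shares in the other sets were also low, from 0 to 0.111% each for regions in 1 2-DG list, 0 to 0.077% in 1 control list and 0 to 0.163% in 2 2-DG lists, so 626 regions cannot show a difference. The single region of the endoplasmic reticulum list, chr6:47788693-47789190, lay 6951 bp past Pdia4, a disulfide isomerase gene, with folds of 31.9, 23.1, 12.7 and 12.6. The share of this list, 0.160%, compares with 0.111% in 1 2-DG list, 0.408% in 2 2-DG lists and 0.0616% in 1 control list. In the neurotrophin list, 3 regions were nearest to 2 receptor genes (0.479%). The share was 0.209% for regions in 1 2-DG list, 0.077% for those in 1 control list and 0 of 1225 for those in 2 2-DG lists. With 3 regions no difference can be read from these shares, and none was tested. Ntrk2 encodes TrkB, the receptor for brain-derived neurotrophic factor. Its regions lay 69095 bp upstream, chr13:58736717-58737377, and 128023 bp past the finish, chr13:59261993-59262492. The folds were 17.3, 13.5, 5.87 and 6.64 at the first and 19.8, 17.1, 4.40 and 9.95 at the second. A region 504886 bp from Ntrk3, the TrkC gene, had folds of 8.97, 7.83, 5.87 and 4.64. No region was nearest to Bdnf.

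Markers of neural progenitors were nearest to 4 regions (0.639%), at 3 genes. The share was 0.0816% (1 of 1225) for regions in 2 2-DG lists, 0.258% (21 of 8127) for those in 1 2-DG list and 0.216% (14 of 6490) for those in 1 control list. With counts of 4 and 1 no difference can be read from these shares, and none was tested. The 4 regions lay 170319 bp from Hes1, 50862 bp from Sox1, and 204130 bp upstream and 15407 bp past Sox2, all transcription factor genes of neural progenitors. The Hes1 region, chr16:29894422-29895038, had folds of 37.4, 27.7, 12.7 and 14.3. The upstream Sox2 region, chr3:34445393-34445865, had 29.7, 21.3, 10.3 and 11.9. The other Sox2 region lay inside the non-coding gene Sox2ot and was called in 3 lists, with folds of 9.28, 9.96 and 4.31. The Sox1 region had folds of 22.9, 15.7, 7.34 and 11.3. These distances do not tie a region to the gene, and the peak lists show no expression. The neuronal, astrocyte, activity-regulated and vascular lists had 1 region each, nearest to Gap43, a growth cone protein gene (235035 bp), Slc1a3, a glutamate transporter gene (23181 bp), Jun (133038 bp) and Cdh5 (162332 bp). Cdh5 is named after its value was seen. The share of 0.160% for each of these 4 lists rests on 1 region. For regions in 1 2-DG list it was 0.271% (neuronal), 0.135% (astrocyte), 0.135% (activity-regulated) and 0.0861% (vascular). For regions in 2 2-DG lists it was 0.408%, 0.327%, 0.490% and 0.163%, and for regions in 1 control list 0.185%, 0.0924%, 0.154% and 0.108%.

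The regions were not set nearer to protein-coding genes than other regions between genes. The median gap to the nearest one was 78546 bp (quartiles 19293 and 220208 bp), against 74774 bp for the 1225 regions in 2 2-DG lists and 61680 bp for the 8127 in 1 2-DG list. It was 56465 bp for the 6490 in 1 control list. Regions between genes called in all 8 lists, 217 in number, lay closer, with a median of 26937 bp. Within 10 kb of a gene lay 98 of the 626 (15.7%, exact binomial 95% interval 12.9 to 18.7), and 65 lay more than 500 kb away. Among regions in 1 control list the share within 10 kb was 15.8% (interval 14.9 to 16.7), and among those in 2 2-DG lists it was 11.1% (9.40 to 13.0). At 50 kb the shares were 43.1% (39.2 to 47.1) for the 626 and 47.4% (46.2 to 48.6) for regions in 1 control list. The distance limit fell among gaps of 2109 bp (4930591A17Rik), 2138 bp (Irf2bp2) and 2138 bp (Slc7a5) just inside the rule. Just outside were 2-DG-specific regions 1980 bp from Uqcrc2, 1879 bp from Ncs1 and 1795 bp from Slc2a9. The Irf2bp2 region was called in 4 lists with folds of 32.2, 18.9, 5.38 and 9.29.

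**Figure D2:**
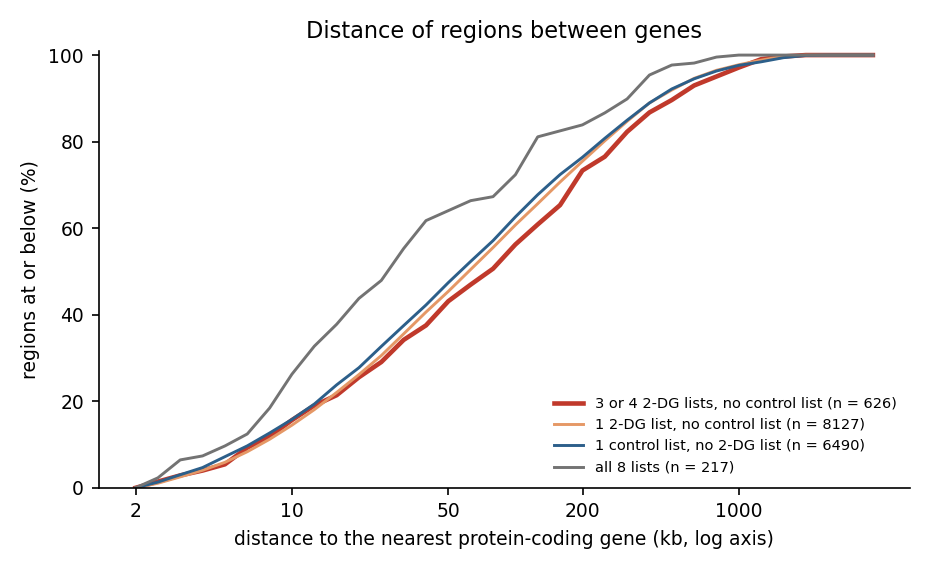
Cumulative percent of regions between genes (y axis) by their distance to the nearest protein-coding gene (x axis, kb, log scale), for the 626 2-DG-specific regions and for regions in 1 2-DG list, in 1 control list and in all 8 lists. The curve of the 626 regions, with a median of 78546 bp, reaches 43.1% at 50 kb, and that of regions in all 8 lists, with a median of 26937 bp, reaches 64.1% there.

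The strand of the nearest gene was known for 516 of the 626 regions, and 287 of these (55.6%, interval 51.2 to 60.0) lay upstream of the gene rather than past its finish. Regions in 1 2-DG list gave 55.0% (53.8 to 56.2) and those in 1 control list 53.5% (52.1 to 54.9), so no difference in side was detectable. Non-coding genes overlapped 123 of the 626 regions, 117 of them long non-coding RNA genes and 0 of them microRNA, snRNA, snoRNA or tRNA genes. By its middle, 18.2% of regions lay in a long non-coding RNA gene (114 regions, interval 15.3 to 21.5), against 14.9% (14.1 to 15.7) of regions in 1 2-DG list, 14.5% (12.6 to 16.6) of those in 2 and 15.2% (14.3 to 16.1) of those in 1 control list. Besides Gm17250, the highest of these regions lay in Gm52506, Gm13266 and 4930556G01Rik. The Gm52506 region, chr2:27572917-27573613, took in the whole start window of that gene and lay 36382 bp from Wdr5, a histone methyltransferase subunit gene. Its folds were 27.8, 22.1, 12.7 and 14.3. A region in Mir100hg, a host gene of microRNAs, was called in 3 lists with folds of 19.2, 13.9 and 9.62. Others of this group lay in Gm32647, Gm39639, Gm40841 and Gm51939.

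The regions were spread over the genome. Chromosome 3 held 47, chromosome 2 held 46 and chromosomes 1 and 13 held 44 each, while X held 10 (1.60%). On X lay 1.63% of regions between genes in 2 2-DG lists and 1.70% of those in 1 2-DG list. The share was 2.27% for regions in 1 control list and 7.37% for those in all 8 lists. The 626 regions had 571 different nearest genes. Flrt2, Fyn, Got2, Reep3, Slc10a2 and Slitrk1 were each nearest to 3. Within 100 kb of another of the regions lay 50, which form 25 pairs, so no group held more than 2. The closest pair lay 927 bp apart, middle to middle, at chr10:39324005-39324903 and chr10:39325133-39325629, about the same distance (44840 and 44114 bp) from Fyn, a Src-family kinase gene. The 2 peaks of this pair were unlike in height. The first had folds of 43.9, 32.4, 7.34 and 17.9, and the second 5.57, 4.98, 5.38 and 4.98.

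The recurrence of calls was also written out list by list, by leaving out each list in turn. These shares restate the calls that chose the regions, so they are a description with no test. For a 2-DG list, regions were chosen from the other 3 2-DG lists (all 3) and no control list. For a control list they were chosen from 3 or 4 2-DG lists and none of the other 3 control lists. Of the regions between genes chosen without them, 2-DG replicates 1 to 4 held 97.9% (232 of 237), 94.7% (232 of 245), 43.7% (232 of 531) and 75% (231 of 308). Control replicates 1 to 4 held 3.25% (21 of 647), 2.95% (19 of 645), 5.44% (36 of 662) and 8.48% (58 of 684). The 2 groups did not overlap, and 2-DG replicate 3 was the lowest 2-DG list. The means were 77.8% ± 24.9 and 5.03% ± 2.56 (SD, n = 4 each), a difference of 72.8 percentage points. The lists choose each other's regions, so the 8 values are not independent.

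By place, the same tally gave lower shares between genes than elsewhere in each of the 4 2-DG lists, again as a description. Left-out 2-DG replicates 1 to 4 held 99.1%, 96.5%, 55.6% and 87.9% of regions at gene ends and 98.2%, 95.5%, 52.9% and 86.2% of those inside genes. The mean difference was -6.95 points ± 6.33 (SD, n = 4) from gene ends and -5.38 ± 5.63 from inside genes. The gap came mostly from replicates 3 and 4, at -11.9 and -12.9 points from gene ends. Of the 626 regions, 37.1% were called in all 4 2-DG lists, against 50.5% at gene ends and 47.3% inside genes, which uses the same calls. Control replicate 1 held 15.6% of the gene end regions chosen without it (40 of 256) but 3.25% of those between genes.

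**Figure D3:**
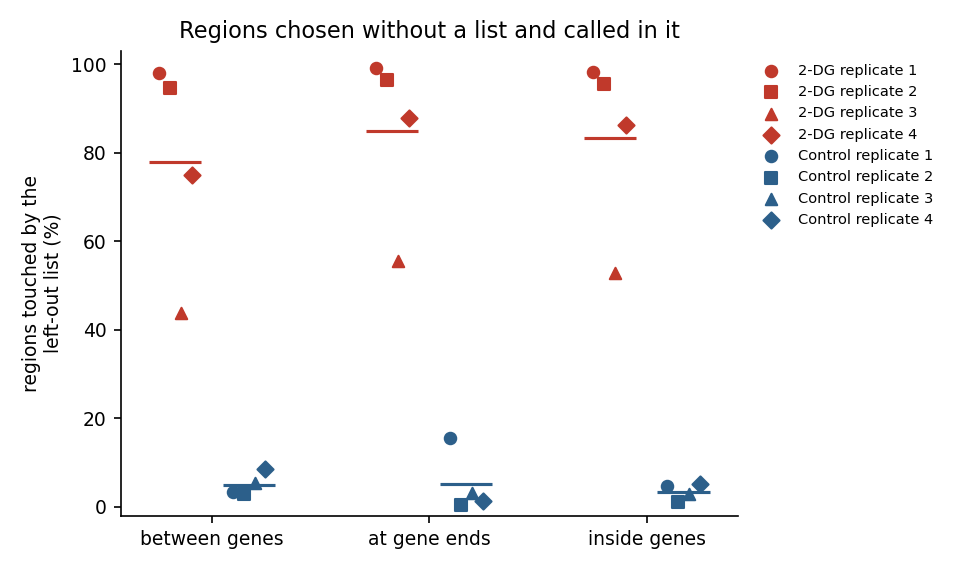
Percent of regions touched by a left-out list (y axis), for regions chosen without that list, by place. Each mark is 1 list and each bar is the mean of 4. The 2-DG lists sit between 43.7% and 99.1% and the control lists between 0.461% and 15.6%.

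Another 2 lists had a title and a description that named different treatments, and they took no part in the choice. One was titled 2-DG but described as control, and the other the reverse. They are called the 2-DG-titled and the control-titled list here, without a view on which label is right. The 2-DG-titled list had a peak at 360 of the 626 regions (57.5%, interval 53.5 to 61.4). In the control-titled list 19 were called (3.04%, interval 1.84 to 4.70). For scale, these lists held 5.00% and 2.78% of the regions between genes in 1 2-DG list, and 96.3% and 95.9% of those in all 8 lists. The 2-DG-titled list held 83.2% of the regions in 4 2-DG lists and 42.4% of those in 3. In 4 nearly equal bins of mean percentile, from lowest to highest, it held 26.8%, 44.6%, 63.9% and 94.9% of regions. The control-titled list held 8.92%, 1.91%, 0 of 155 and 1.27%, where 0 of 155 allows up to 2.35% by the exact interval. The share called in the 2-DG-titled list was thus higher in each higher bin. It held 65.8% (interval 61.8 to 69.7) of the 2-DG-specific regions inside genes and 59.3% (52.4 to 65.9) of those at gene ends.

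At the 360 regions it held, the median fold in the 2-DG-titled list was 5.56, with a range of 3.47 to 24.3, against 4.17 over all its peaks. Its summit lay a median of 20.5 bp from the median summit of the 2-DG lists, and within 50 bp at 292 regions (81.1%). The Itga6 region was the highest there too, at 24.3, followed among the named regions by Gask1b at 23.3, Prelid2 at 20.8 and Cdh10 at 19.8. The Sesn2 region had a fold of 18.4, the Trib3 region 9.38 and the Vldlr region 7.29. The regions at Slc38a2, Slc7a5 and Ntrk3 were not called in it. Both Ntrk2 regions were called, with folds of 7.64 and 8.33. No source used here states which label of these lists is right. If both are added by title and 4 of 5 2-DG lists are asked for, 387 regions meet the rule, and if added by description, 46.

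**Figure D4:**
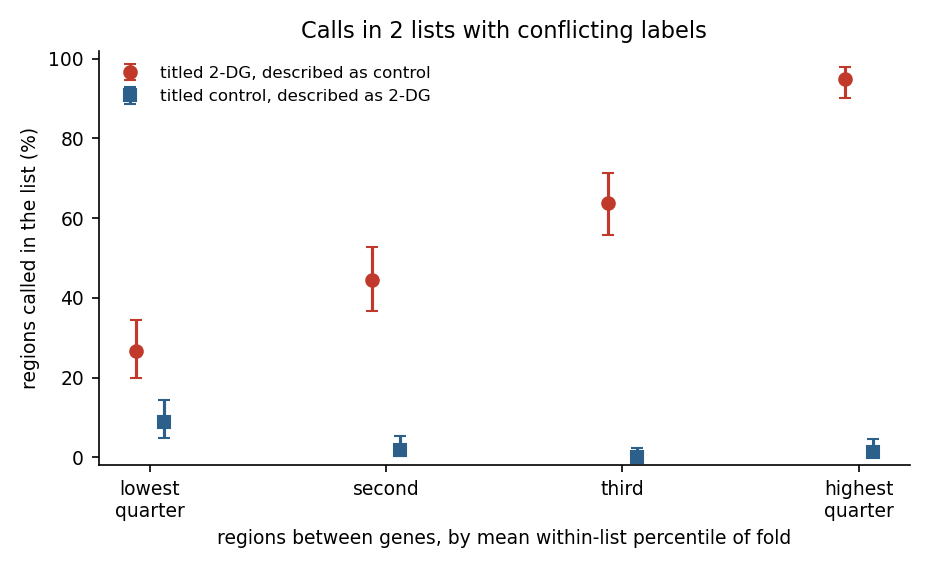
Percent of the 626 regions called in each of the 2 lists with conflicting labels (y axis), in 4 bins of the regions' mean within-list percentile of fold in the 2-DG lists (x axis). Points are shares and bars exact binomial 95% intervals. The 2-DG-titled list runs from 26.8% to 94.9%, and the control-titled list stays at or below 8.92%.

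Outside the 626 regions, peaks between genes were not more numerous after 2-DG beyond the spread of the lists. The control lists held 1970, 2233, 4715 and 3911 of them and the 2-DG lists 7593, 3230, 3160 and 2553. The groups overlapped, and replicate 1 stood apart among the 2-DG lists. The difference of 926.75 peaks had p = 0.629 (exact permutation, two-sided), and it was 34.1 without 2-DG replicate 1 (exact permutation p = 1). With the 3461 top peaks of each list the direction turned, to -610 peaks, but leaving out the regions takes peaks from 2-DG lists alone. With equal list lengths and no region left out, a setting added after the data were seen, the difference was -277 peaks (exact permutation p = 0.0286). As a share of all peaks outside the 626 regions, peaks between genes made up 56.9%, 59.0%, 57.5% and 57.4% in control replicates 1 to 4. In 2-DG replicates 1 to 4 they made up 51.9%, 47.8%, 52.3% and 48.1%. Every 2-DG list was below every control list, at 50% ± 2.40 against 57.7% ± 0.904 (SD, n = 4 each), a difference of -7.66 percentage points (two-sided exact permutation p = 0.0286). Leaving out the 626 regions removes peaks from 2-DG lists alone and by itself lowers their share. With no region left out, a setting added after the data were seen, the 2-DG lists had 53.9%, 52.2%, 54.7% and 53.0%, and the difference was -4.25 points. With all 2-DG-specific regions of any place left out, also added, it was -2.30 points (exact permutation p = 0.0286 for both). The direction was the same in all settings tried, while the size depends on which regions are left out. With the pair of conflicting lists added by description the difference was -2.93 points and did not pass (exact permutation p = 0.0794).

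**Figure D5:**
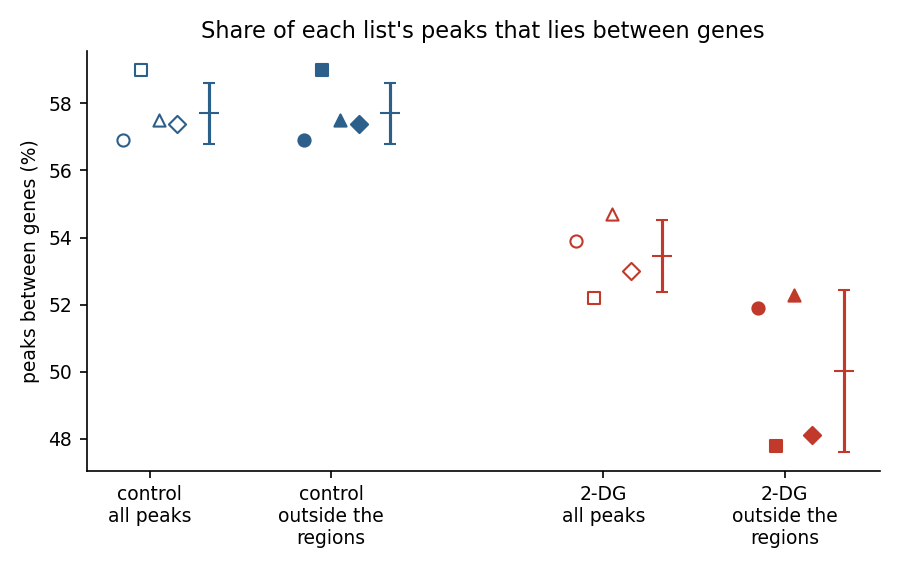
Percent of each list's peaks that lie between genes (y axis, which does not start at 0), for all peaks (open marks) and for peaks outside the 626 regions (filled marks). Each mark is 1 list, with the mean and SD of 4 lists at its right. Control lists lie between 56.9% and 59.0%, and 2-DG lists between 52.2% and 54.7% for all peaks and between 47.8% and 52.3% outside the regions.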

How the data were processed

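Chromatin immunoprecipitation lists of 4 control and 4 2-DG samples were analysed, with 2 lists of conflicting labels used as alternatives and for shares held. The submitters' processing notes name mm10, BWA, Picard, DiffBind and MACS2, with no role, order or version. Steps between reads and lists were otherwise not stated. The deposited lists give, per summit, the authors' fold over local background (a ratio), -log10 p and q values, and a whole-number score equal to the integer part of 10 times that -log10 q. Each deposited list ends at its own lowest -log10 q, from 1.32 to 1.77 in the compared lists. An interval listed once per summit was counted as 1 peak at its summit of highest -log10 q. Depth is unknown, and no filter for mappability was applied.

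Gene positions and start windows came from RefSeq tables of GRCm38.p6. The planned motif search in the regions was not run, because no genome was used here. Distances run from the edge of a region to the edge of the nearest of 21627 protein-coding genes. Named regions were the 10 highest and 5 lowest of those in all 4 2-DG lists by mean percentile of fold, up to 15 nearest to a gene of 14 lists, up to 10 overlapping a non-coding gene, those at the distance limit and the closest group. Ties in the last went to the closest pair, a choice made after the data were seen. One named region is not reported here. The regions, lists and tests were chosen with earlier results of these data known.

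Values per list were tested by exact permutation (two-sided, 70 assignments for 4 lists against 4). Settings with a list left out or the conflicting lists added used all assignments of the lists they held. The planned tests of shares in left-out lists are not given, because those shares restate the calls that chose the regions. Shares of regions have exact (Clopper-Pearson) 95% intervals. Alternatives were filters on -log10 q and fold, equal list lengths, autosomes, summit windows, other distances, all genes, the conflicting lists, and leaving out each list. Analysis used Python 3.11.15, pandas 2.3.3 and scipy 1.17.1, and the code was tested on simulated lists.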

Additional observations from a re-analysis of the deposited data

Results flagged for a closer look

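In 2 of 46 groups of 4 values, 1 list stood far from the rest, and chance flags about 1 in 20, or 2.3 groups. 2-DG replicate 1 held 7593 peaks between genes outside the 626 regions, far above the other 2-DG lists. The fold of the region past Vldlr was 28.8 in 2-DG replicate 1, far above the values of the other 3 lists, although folds of different lists are not on 1 scale. The cause of either was not tested.

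A list that belongs to no group, being titled 2-DG but described as control, had peaks at 57.5% of the 626 regions. Control lists held at most 8.48% of regions between genes chosen without them.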

How the results depend on the processing

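The number of regions between genes was 626. It was 310 with -log10 q of at least 5, 329 with fold of at least 5 and 386 with the 3461 top peaks of each list. It was 387 with the conflicting lists added by title, 46 when added by description, and 266 when the 2-DG-titled list also had to be untouched, an alternative added after the data were seen. Each of these asks more of a peak or of the lists. Without 1 list at a time it ran from 237 to 684, the lowest without 2-DG replicate 1. The other 7 settings stayed within 1.5 times. The difference in held-out share ran from 52.6 to 70.2 percentage points without 1 list, and under the other 9 settings from 72.0 to 81.7 points. It restates the calls that chose the regions and carries no test. With equal numbers of peaks per list, the difference in peaks between genes outside the regions reversed from 926.75 to -610, and to -277 with no region left out (added after the data were seen, exact permutation p = 0.0286). Part of the -610 follows from leaving out regions of 2-DG lists alone, and the cause of the rest was not tested. Without 1 list that difference ran from 34.1 to 1666 and never passed. The share of peaks between genes differed by -2.93 points when the conflicting lists entered by description (exact permutation p = 0.0794), and by -8.09 to -5.37 points without 1 list (exact permutation p = 0.0286 in all 8). The other alternatives ran from -14.4 to -2.30 points, and all passed. Most of these runs left out regions between genes that only 2-DG lists hold, which by itself lowers the share of those lists. With no region left out the difference was -4.25 points, and -8.01 with equal list lengths as well. With all 2-DG-specific regions left out it was -2.30 points. These 3 settings were added after the data were seen. No paired analysis was possible because the labels give the lists running numbers and no shared replicate numbers. Depth is unknown, so no limit of detection can be set for a region without a call.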

Other observations

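Ranks 11, 13 and 14 by mean percentile fell to regions nearest to developmental transcription factor genes outside the lists used, named after their values were seen. They are examples only, since regions nearest to such genes were not counted among the 626 or in other sets. The region nearest to Nr2f1, a nuclear receptor gene of cortical patterning, lay 745192 bp upstream at chr13:78944065-78944676. Its folds were 43.0, 24.5, 18.1 and 15.9 in 2-DG replicates 1 to 4. A region 42077 bp past Nkx2-2, a ventral neural tube gene, lay at chr2:147133476-147134408, with folds of 35.6, 27, 14.7 and 15.6. The region 125556 bp upstream of Sp8, a zinc finger gene of forebrain patterning, lay at chr12:118719977-118720732, with folds of 31.9, 24.5, 12.7 and 16.6. All 3 were also called in the 2-DG-titled list, with folds of 11.8, 12.5 and 12.5. Whether these genes are expressed in the cultures was not measured.

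Near the same rank lay a region 12342 bp upstream of Adpgk, which encodes an ADP-dependent glucokinase and is not in the glycolysis list. Its folds were 38.7, 34.1, 14.2 and 11.9. A region 6092 bp upstream of the cathepsin C gene Ctsc had folds of 32.8, 27.4, 14.2 and 12.9. The microRNA genes nearest to any of the 626 regions were Mir3089 at 2813 bp, Mir760 at 3265 bp and Mir670 at 4606 bp.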
